A study of Mus musculus with 24 samples.

Results

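Cholesterol and fatty acid synthesis genes were followed in the lungs of newborn mice given 85% oxygen on a selenium-sufficient or a selenium-deficient diet. The 30 genes were taken by symbol from a list of targets of the sterol regulatory element-binding proteins (SREBPs), out of 57010 genes in the count table. All 30 passed the filter on low counts, which kept 23831 genes. They comprise 17 enzymes of the mevalonate and sterol pathway, 4 genes of sterol regulation and transport and 9 genes of fatty acid synthesis and desaturation.

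RNA of C3H/HeN lung was sequenced in 24 libraries, 3 in each of 8 groups. The SeS diet held 0.4 ppm sodium selenite and the SeD diet under 0.01 ppm. Pups were kept in room air (RA, FiO2 0.21) or in hyperoxia (O2, FiO2 0.85), and lungs were taken at postnatal day 1 (PN1) or 3 (PN3). The groups are therefore SeS RA, SeS O2, SeD RA and SeD O2 at PN1 and the same 4 at PN3. Per the study's methods, exposure began within hours of birth, so O2 pups at PN3 had been exposed for longer than those at PN1. In O2, age and length of exposure cannot be told apart. All pups were of 1 inbred strain. Their parents ate the diets from 3 weeks of age, so the diets reached the pups through the dam, and nursing dams were moved between RA and O2 each day. Lungs were perfused and sequenced whole, and the labels do not say which pups were littermates. The p-values measure only the spread between these pups. The Y-linked gene Ddx3y was detected in 1 or 2 libraries of each group except SeD O2 PN3, where it was in 0 of 3, so sex was not balanced between groups and its part was not tested.

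SREBPs are membrane-bound transcription factors that are cut and released when sterols in the endoplasmic reticulum run low. SREBP-2 (Srebf2) mainly drives cholesterol synthesis and uptake, and SREBP-1 (Srebf1) mainly drives fatty acid synthesis. INSIG1 holds the SREBP complex in the endoplasmic reticulum when sterols are plentiful. In the lung, alveolar type 2 cells make the lipids of surfactant, and cholesterol is one of them.

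RefSeq promoter windows (250 bases before to 50 after each start, table of build GRCm38.p6) were at hand for 23 of the 30 genes. Fads1, Fdft1, Fdps, Scd1, Scd2, Sqle and Stard4 had none. Windows are printed for Hmgcs1, which alone held the full sterol regulatory element searched, and for Mvk, Srebf2 and Fasn, which changed with O2 in both diets at PN3. Each shows bases before the start that lie outside exons of protein-coding genes, at most 200 of them, placed in GRCm39 by an exact match. Capitals mark TCACCC (within TCACNCCAC in Hmgcs1) and CCAAT or its reverse complement.
Hmgcs1, chr13:120151687-120151886, plus strand: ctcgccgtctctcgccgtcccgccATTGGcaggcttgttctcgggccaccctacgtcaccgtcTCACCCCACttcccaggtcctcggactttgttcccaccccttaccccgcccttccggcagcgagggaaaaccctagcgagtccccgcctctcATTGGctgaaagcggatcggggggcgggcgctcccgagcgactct
Mvk, chr5:114582174-114582266, plus strand: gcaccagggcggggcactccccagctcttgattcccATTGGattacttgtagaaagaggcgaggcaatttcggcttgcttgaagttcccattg
Srebf2, chr15:82031270-82031381, plus strand: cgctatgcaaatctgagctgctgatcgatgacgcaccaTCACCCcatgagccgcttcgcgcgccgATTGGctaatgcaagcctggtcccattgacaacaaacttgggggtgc
Fasn, chr11:120715403-120715573, minus strand: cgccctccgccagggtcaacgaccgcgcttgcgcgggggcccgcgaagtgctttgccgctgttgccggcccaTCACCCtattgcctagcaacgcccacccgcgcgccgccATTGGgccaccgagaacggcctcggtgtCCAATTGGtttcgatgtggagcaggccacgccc
The element TCACNCCAC was found on either strand in 1 of the 23 genes (4.35%) and in 1.44% of 27025 genes with a window. Its first 6 bases, TCACCC, were found in 8 genes (34.8%, against 18.1%), which were Acss2, Fasn, Hmgcs1, Hsd17b7, Insig1, Nsdhl, Srebf1 and Srebf2. With another free base, TCANNCCAC was found in Hmgcs1 and Acly (8.7%, against 4.78%). The CCAAT box was in 20 of 23 (87%, against 41.1%), the GC box GGGCGG in 19 of 23 (82.6%, against 38.2%) and the E-box CACGTG in 4 of 23 (17.4%, against 8.09%). CCAAT and TCACNCCAC did not overlap in any window, while TCACCC lies inside TCACNCCAC where its N is C, and the matches are a description of letters and no evidence of binding.

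Totals per library ran from 25985926 to 50437601 counts. SeD O2 PN3 replicate 1 stood apart, with 36100 CPM (read counts put on a common library size) of the albumin gene Alb. SeD O2 PN1 replicates 1 and 2 had 3840 and 2600 CPM and the other 21 libraries 2.12 to 942 CPM. Together, 735 olfactory and vomeronasal receptor genes, which are known from sensory neurons, took 109 to 453 CPM of each O2 library (12 libraries). They summed to 316 and 822 CPM in SeD RA PN1 replicates 1 and 2, and to 21.7 to 44.9 CPM in the other 10 RA libraries. SeS O2 PN1 replicate 2 is hyperoxia by its title and FiO2 0.21 by its record, and it was placed by its title.

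Levels were set per kilobase of exon, with all annotated exons of a gene merged (2730 bases for Mvd to 19789 for Acss2). Ranks between genes therefore depend in part on annotation. The highest level among sterol enzymes was that of Hmgcs1, the synthase that starts the mevalonate pathway. Its median over the 24 libraries was 39.6 CPM per kb (29.4 to 65.3). Fdft1 (squalene synthase) followed at 11.1 and Cyp51 (lanosterol demethylase) at 10.9 CPM per kb, with ranges that overlapped almost fully. Tm7sf2, a sterol reductase, was the lowest at 0.883 CPM per kb. Among the regulators, Stard4, which carries cholesterol between membranes, had 18.8 and Srebf2 16.3 CPM per kb. Among fatty acid genes the desaturase Scd2 had 73.7, its relative Scd1 37.3 and the fatty acid synthase gene Fasn 19.5 CPM per kb. Scd1 ranged 4.15-fold from the lowest to the highest library, and Acly, which makes acetyl-CoA from citrate, 1.48-fold. Exons of 16 of the genes overlap those of an antisense gene and exons of 3 (Scd2, Srebf1, Tm7sf2) overlap a gene on the same strand. How counting used strand is not given in the sources used here. Idi1 has 5 annotated pseudogenes, Scd1 and Scd2 are close relatives, and Ebp and Fads2 each have an annotated relative (Ebpl and Fads2b), so reads of these genes may be shared in part. In GRCm39, Fdps (ENSMUSG00000059743) lies at chr3:89000888-89019213, Sqle (ENSMUSG00000022351) lies at chr15:59186869-59203043, Srebf2 (ENSMUSG00000022463) lies at chr15:82031382-82093201, Fasn (ENSMUSG00000025153) lies at chr11:120696672-120715995 and Scd1 (ENSMUSG00000037071) lies at chr19:44382894-44399154.

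**Figure D1:**
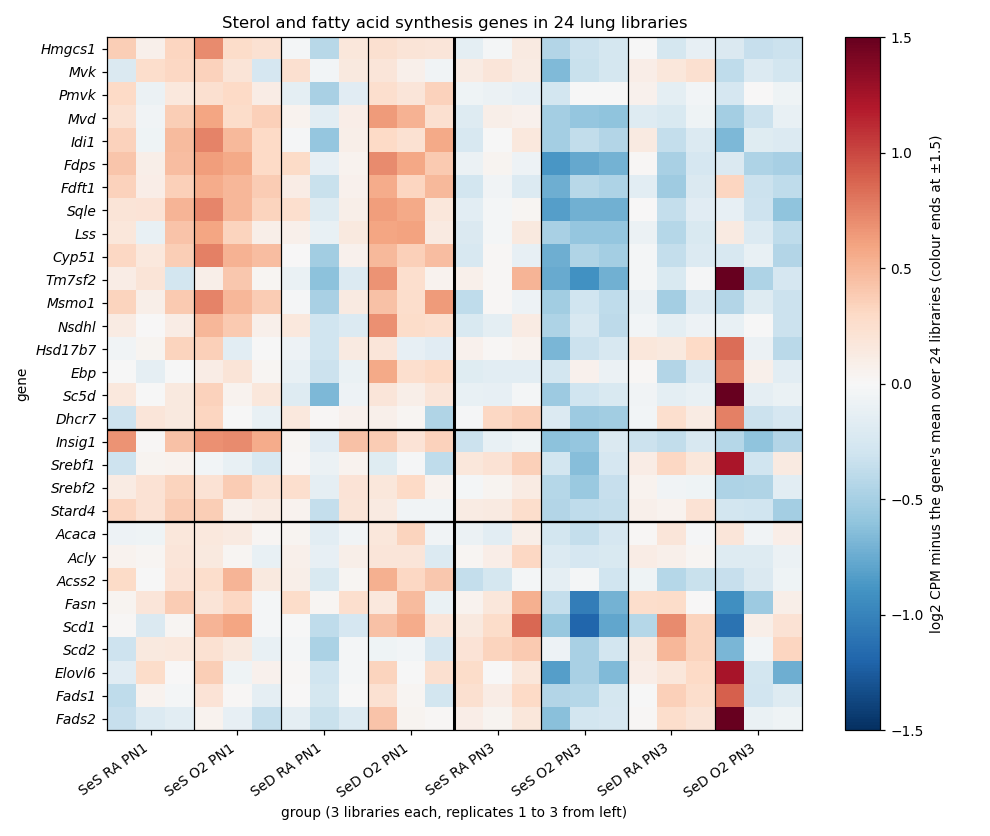
Level of each of the 30 genes (rows) in each of the 24 libraries (columns), as log2 CPM minus the mean of the gene, with lines between groups and roles. The SeS O2 PN3 columns are below 0 for nearly all genes, and in SeD O2 PN3 replicate 1 Tm7sf2, Sc5d and Fads2 stand far above the mean while Fasn and Scd1 stand below it.

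Of the 4 comparisons of O2 with RA, the one in SeS pups at PN3 had the most of these genes called. Calls needed a log2 fold change past 0.25 in size, together with an adjusted p below 0.05. In SeS at PN3, 14 of the 30 genes (46.7%) were lower in O2 than in RA and 0 were higher. Over all genes tested, 11.5% were called lower and 16.1% higher. The median log2 fold change was -0.49 over the 30 genes and 0.04 over all genes, and 27 of 30 values were below 0. CPM of the 3 O2 libraries lay wholly below those of the 3 RA libraries for 25 of the 30 genes, against 21.5% of all genes. The type 2 cell markers went the other way in sum, from 14800 to 18000 CPM in RA and from 21400 to 24400 CPM in O2, with 1 of 12 called higher (Hc) and 4 of 12 with a log2 fold change below 0. Most of the sum is Sftpc, at 8540, 9050 and 9970 CPM in RA and 12800, 13000 and 15000 CPM in O2. Macrophage markers summed to 324 to 413 CPM in RA and 568 to 679 CPM in O2, with 6 of 8 called higher. Proliferation markers went the same way as the 30 genes, with all 8 below 0 (median log2 fold change -0.40) and 1 called lower (Plk1). The part of cell numbers in the result was not tested. Thymus and lymphocyte markers summed to 315 CPM in SeS RA PN3 replicate 2 and to 41 to 91.9 CPM in the other 5 libraries, and skeletal muscle markers to 428 CPM in SeS O2 PN3 replicate 1 and to 33.2 to 70.8 CPM in the others. Liver markers summed to 2020 CPM in SeS RA PN3 replicate 3 and to 6.52 to 122 CPM in the other 5 libraries. The part of these tissues was not tested. In bulk lung, fewer cells of a type and less RNA per cell cannot be told apart.

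Among sterol enzymes, 7 of 17 fell. Fdps makes farnesyl diphosphate, the branch point to sterols and prenyl groups. Its level was 44.4, 48.9 and 44.9 CPM in SeS RA PN3 and 25.9, 27.8 and 28.9 CPM in SeS O2 PN3. The groups did not overlap, and the log2 fold change was -0.74 ± 0.135 (SE, adjusted p = 0.00144). Sqle, the squalene epoxidase, read 39.4, 43.3 and 45 CPM in RA and 24.9, 26.7 and 26.8 CPM in O2. Its O2 libraries were again all lower and lay within 2 CPM of each other (log2 fold change -0.70 ± 0.146, adjusted p = 0.00286). Mvd, a decarboxylase of the mevalonate steps, read 12.4, 15 and 14.8 CPM in RA and 9.98, 9.44 and 9.3 CPM in O2. Its log2 fold change was -0.55 ± 0.136 (adjusted p = 0.00681). Mvk, the mevalonate kinase, read 23.7, 24.6 and 23.6 CPM in RA and 13.7, 17.2 and 18.1 CPM in O2. The groups did not overlap (log2 fold change -0.55 ± 0.145, adjusted p = 0.00972). Lss closes the sterol ring, and read 23.6, 26.8 and 30.3 CPM in RA and 19.6, 18.3 and 18.3 CPM in O2. The fall was 0.52 on the log2 scale, a value of -0.52 ± 0.162 (adjusted p = 0.0221). Cyp51 read 55.5, 65.9 and 60.2 CPM in RA and 39.4, 47.6 and 45.9 CPM in O2. All 3 O2 libraries were lower (log2 fold change -0.45 ± 0.132, adjusted p = 0.0166). Dhcr7, the last reductase to cholesterol, read 14.9, 18.7 and 19.3 CPM in RA and 13.1, 10.3 and 10.5 CPM in O2. It had the highest adjusted p of the 7 (log2 fold change -0.64 ± 0.223, adjusted p = 0.0368). The other 10 enzymes did not pass the test, with log2 fold changes from -1.01 ± 0.448 for Tm7sf2 to 0.07 ± 0.161 for Ebp, a sterol isomerase. Hmgcs1, at 191, 207 and 232 CPM in RA and 155, 169 and 175 CPM in O2, was among them (log2 fold change -0.34 ± 0.137, adjusted p = 0.0711). Its groups did not overlap.

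Of the 4 regulators, Srebf2 and Stard4 fell. Srebf2 read 144, 150 and 159 CPM in RA and 109, 99.4 and 115 CPM in O2 (log2 fold change -0.49 ± 0.11, adjusted p = 0.00439). Stard4 read 118, 119 and 130 CPM in RA and 80, 83.4 and 85 CPM in O2 (log2 fold change -0.57 ± 0.114, adjusted p = 0.00251). For both, every O2 library was below every RA library. Srebf1 (-0.63 ± 0.238, adjusted p = 0.0536) and Insig1 (-0.30 ± 0.149, adjusted p = 0.141) did not pass the test.

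Of the 9 fatty acid genes, 5 fell. Scd1 puts the first double bond into saturated fatty acids. It read 287, 312 and 469 CPM in RA and 175, 113 and 151 CPM in O2, with the widest spread among RA libraries of the 5. Its log2 fold change of -1.29 ± 0.303 was the largest of the 30 genes (adjusted p = 0.00627). Fasn read 218, 236 and 302 CPM in RA and 164, 102 and 128 CPM in O2. The groups did not overlap (log2 fold change -0.94 ± 0.21, adjusted p = 0.00442). Scd2 read 653, 714 and 743 CPM in RA and 540, 406 and 470 CPM in O2 (log2 fold change -0.58 ± 0.192, adjusted p = 0.0306). Acly read 217, 227 and 263 CPM in RA and 184, 178 and 181 CPM in O2, where its libraries were close together. Its log2 fold change was -0.38 ± 0.106 (adjusted p = 0.0128). Fads1, a desaturase of polyunsaturated fatty acids, read 108, 98.9 and 112 CPM in RA and 67.6, 67.9 and 76 CPM in O2. It was close to the threshold (log2 fold change -0.59 ± 0.217, adjusted p = 0.0481). Elovl6, Fads2, Acaca and Acss2 did not pass, at -0.80 ± 0.311, -0.48 ± 0.344, -0.25 ± 0.103 and 0.06 ± 0.127 on the log2 scale. Fdps, Sqle, Mvd, Srebf2, Stard4, Fasn and Scd1 were called without any single library of the 24. Without SeS RA PN3 replicate 3, 9 of the 30 genes were called lower. That library had 2020 CPM of liver markers and the highest RA level of each of the 5 fatty acid genes that fell.

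**Figure D2:**
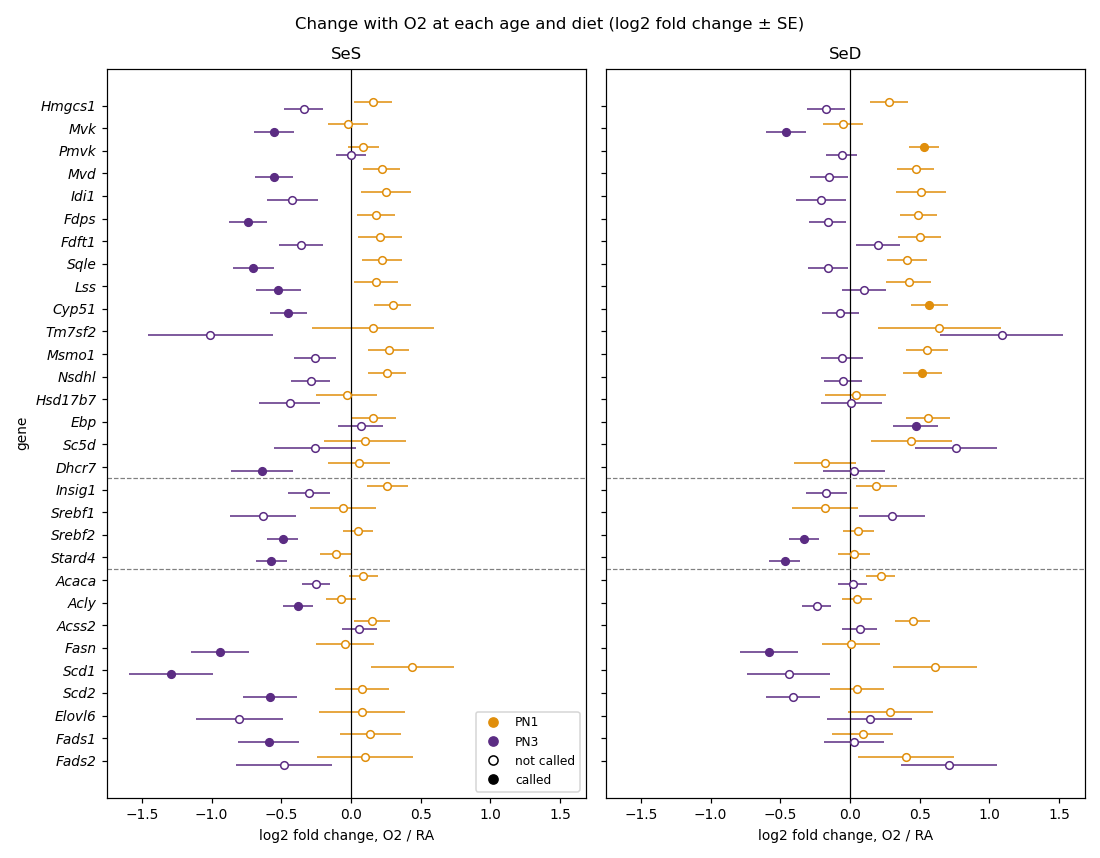
Log2 fold change of O2 against RA for each gene in SeS (left) and SeD (right), at PN1 (orange) and PN3 (purple), with SE bars and filled points where the gene was called. In SeS the PN3 points lie left of the PN1 points for all 30 genes, with 14 called lower. In SeD the PN3 points spread around 0.

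At PN1 the same comparison in SeS pups called 0 of the 30 genes, where 0.0587% of all genes were called in either direction. In SeS at PN1, 3670 genes had an unadjusted p under 0.05, among them 1 of the 30, Cyp51. Limma and DESeq2 also called 0 of the 30. The median log2 fold change was 0.15, and 24 of 30 values were above 0. In SeD pups at PN1, 3 of the 30 genes (10%) rose with O2 and 0 fell, where 1.4% of all genes were called higher and 1.1% lower. All 3 are sterol enzymes. Pmvk, the kinase after mevalonate kinase, read 34.3, 27.3 and 33.8 CPM in SeD RA and 45.5, 43.3 and 48.6 CPM in SeD O2. It differed by 0.53 ± 0.11 on the log2 scale (adjusted p = 0.0161). Cyp51 read 65.3, 45.4 and 68.2 CPM in RA and 91.6, 83.5 and 90 CPM in O2 (0.57 ± 0.132 on the log2 scale, adjusted p = 0.0279). Nsdhl, which helps to take off the sterol methyl groups, read 27, 19.7 and 21.1 CPM in RA and 39, 29.3 and 29 CPM in O2. For these 3 genes every O2 library was above every RA library, and Nsdhl was at the threshold (0.52 ± 0.139 on the log2 scale, adjusted p = 0.0482). The median over the 30 genes was 0.41, and 15 of 30 had O2 libraries all above RA libraries, against 13.1% of all genes.

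The SeD PN1 count rested on single libraries. It was 0 if SeD RA PN1 replicate 2 or either of replicates 1 and 3 of SeD O2 PN1 was left out, and 5 without SeS RA PN1 replicate 1. It was 8 without SeD O2 PN3 replicate 3 and 14 without SeD O2 PN3 replicate 1, libraries of another group. They enter through the shared spread, the TMM scaling and the filter on low counts, which kept 24583 genes without SeD O2 PN3 replicate 1. The part of each was not tested. Over all genes, 1942 of 24583 were called higher without SeD O2 PN3 replicate 1, against 334 of 23831 in the main fit. On TMM-scaled CPM, SeD RA PN1 replicate 2 had the lowest level of 24 libraries for Pmvk, and it was the library with 822 CPM of receptor transcripts. Its TMM factor, 1.22, was the largest of the 24, while the SeD O2 PN1 factors were 0.979, 0.994 and 0.934. On plain totals it was not the lowest, with 896 Pmvk counts of 26863031 against 893 of 31026031 in SeD O2 PN3 replicate 1. Without SeD RA PN1 replicates 1 and 2 the count was 0, and without the 3 Alb-rich libraries it was 5.

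In SeD pups at PN3, 4 of the 30 genes (13.3%) fell with O2 and 1 (3.33%) rose, where 12.2% of all genes were called lower and 23.7% higher. The share called lower was close to that of all genes. The median log2 fold change was -0.06. Stard4 read 115, 113 and 126 CPM in SeD RA and 89.9, 88.6 and 76.2 CPM in SeD O2 (log2 fold change -0.47 ± 0.114, adjusted p = 0.00377). Srebf2 read 152, 141 and 140 CPM in RA and 106, 107 and 131 CPM in O2 (log2 fold change -0.33 ± 0.11, adjusted p = 0.0219). Mvk read 23.3, 24.5 and 25.6 CPM in RA and 16.7, 18.9 and 17.9 CPM in O2 (log2 fold change -0.46 ± 0.145, adjusted p = 0.0177). In each of these 3 the groups did not overlap. Fasn read 251, 253 and 210 CPM in RA and 111, 143 and 223 CPM in O2, so that its highest O2 library lay within the RA range (log2 fold change -0.58 ± 0.209, adjusted p = 0.0346). Ebp read 37.3, 27.1 and 31.9 CPM in RA and 61.6, 38.9 and 32.9 CPM in O2. Ebp is on chromosome X, its groups overlapped, and replicate 1 was far above the others (log2 fold change 0.47 ± 0.161, adjusted p = 0.0268). Insig1, Acly, Mvk, Srebf2 and Stard4 made up the 5 of 30 with all O2 libraries below all RA libraries, against 17.6% of all genes. The 4 genes that fell in SeD were all among the 14 that fell in SeS, which is 28.6% of the SeS list. Both lists come from 1 fit with a shared spread. The same overlap over all genes was not counted, so it is no result about these genes.

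SeD O2 PN3 replicate 1 set many of the SeD values at PN3. In that library 10 of the 30 genes were over 1.5 times the mean of replicates 2 and 3, and 8 were over 2 times. It held the highest level of all 24 libraries for 9 genes. Tm7sf2 read 19.4 CPM there against 3.15 and 3.66 CPM. Fads2, a desaturase that works with Fads1, read 296 against 76.6 and 78.8 CPM. Sc5d, a sterol desaturase, read 115 against 36.3 and 37.3 CPM. These are large departures within one group, 5.7-, 3.82- and 3.13-fold. Elovl6, an elongase, read 32.9 against 11.6 and 8.42 CPM, and Srebf1 147 against 51.5 and 69.3 CPM. In contrast, Scd1 read 120 against 274 and 301 CPM, Scd2 353 against 552 and 709 CPM, and Fasn 111 against 143 and 223 CPM. The 12 liver markers summed to 76700 CPM in replicate 1, against 268 and 60.1 CPM in replicates 2 and 3. Fdps, Sqle and Stard4 in replicate 1 were within 1.25 times the mean of the other 2 libraries, at 1.2, 1.25 and 1.09 times.

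Without SeD O2 PN3 replicate 1, 25 of 30 log2 fold changes of O2 against RA in SeD were below 0 at PN3, against 17 of 30 with it, and the median was -0.18. Stard4, Fads1 and Elovl6 were then called lower, at -0.49, -0.43 and -0.65 on the log2 scale, and 0 were called higher. Ebp was at 0.19 (adjusted p = 0.28), and Mvk, Srebf2 and Fasn were at -0.38, -0.25 and -0.36 with adjusted p of 0.078, 0.107 and 0.215. The count in SeD at PN3 was 3 without SeD RA PN3 replicate 2, 8 without SeD O2 PN3 replicate 2 and 9 without SeD O2 PN3 replicate 3. Stard4 was called without any single library. Without replicate 1 the group has 2 libraries, and its spread is then taken largely from the other groups. In the SeS comparison at PN3, which does not contain that library, 20 of the 30 genes were called lower once it was left out of the fit. Over all genes, 2852 of 24583 were then called lower in SeS, against 2748 of 23831 in the main fit. In SeD, 1856 of the 24583 were then called lower and 4225 higher.

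**Figure D3:**
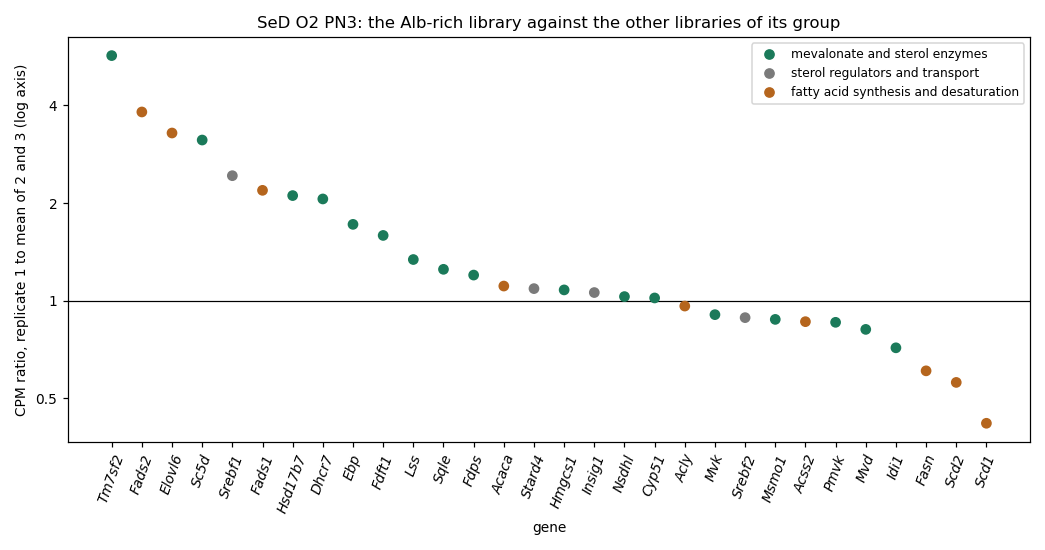
Ratio of CPM in SeD O2 PN3 replicate 1 to the mean CPM of replicates 2 and 3 (log axis) for each gene, coloured by role. Tm7sf2, Fads2, Elovl6 and Sc5d lie over 3, most genes lie near 1, and Fasn, Scd2 and Scd1 lie lowest.

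Whether diet changed the response to O2 was tested as the difference of the O2 effects (SeD minus SeS). Of the 30 genes, 0 were called at PN1 and 0 at PN3, and of all genes 0% at either age, with 4072 and 1946 genes at an unadjusted p under 0.05. Limma called 0 of the 30 at both ages, and DESeq2 0 at PN1 and 1 at PN3. At PN3, 29 of 30 differences were above 0, with a median of 0.39, and 11 had an unadjusted p under 0.05. Fdps differed by 0.58 ± 0.19 (adjusted p = 0.46), Lss by 0.62 ± 0.229 (adjusted p = 0.51) and Sqle by 0.54 ± 0.205 (adjusted p = 0.521). Tm7sf2 had the largest difference, 2.10 ± 0.628 (adjusted p = 0.46), and was at 0.74 (adjusted p = 1) without SeD O2 PN3 replicate 1. Without that library the median difference was 0.23, 28 of 30 were above 0, 4 had an unadjusted p under 0.05 and 0 were called. The fall in SeS was not shown to differ from the values in SeD.

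SeD was also set against SeS within each gas. In RA at PN1, 2 of the 30 genes (6.67%) were lower in SeD and 0 higher, where 1.3% of all genes were called lower and 13.3% higher. They were Pmvk, at 46.7, 35.8 and 42.6 CPM in SeS RA and 34.3, 27.3 and 33.8 CPM in SeD RA (-0.39 ± 0.11 on the log2 scale, adjusted p = 0.0193), and Cyp51, at 80.8, 73.1 and 84.5 CPM in SeS RA and 65.3, 45.4 and 68.2 CPM in SeD RA (-0.41 ± 0.132 on the log2 scale, adjusted p = 0.0371). These RA libraries of SeD are those against which Pmvk and Cyp51 rose in O2. The count was 0 without SeD RA PN1 replicate 2, SeS RA PN1 replicate 1 or SeS RA PN1 replicate 3. It was 1 without SeS O2 PN1 replicate 2 and 6 without SeD RA PN1 replicate 3, the SeD RA library with receptor transcripts at the level of other RA libraries. Without SeD RA PN1 replicates 1 and 2 it was 0.

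In the other 3 diet comparisons 0 of the 30 genes were called. In O2 at PN1 and in RA at PN3, 0.0126% of all genes were called in each, and 1076 and 624 genes had an unadjusted p under 0.05. In O2 at PN3, 0.143% were called, and 3782 genes had an unadjusted p under 0.05, among them 16 of the 30. DESeq2 called 11 of the 30 genes there and limma 0. The share of all genes called by DESeq2 is not given here, so its 11 is no result about these genes. The median over the 30 genes in O2 at PN3 was 0.33, and 27 of 30 were above 0. SeD libraries were all above SeS libraries for 10 of the 30, against 7.35% of all genes. The 10 were Fdps, Fdft1, Sqle, Lss, Cyp51, Tm7sf2, Sc5d, Acaca, Acly and Fads2. Fdps read 25.9, 27.8 and 28.9 CPM in SeS O2 and 40.7, 34.5 and 33.6 CPM in SeD O2 (0.40 ± 0.135 on the log2 scale, adjusted p = 0.124). Acaca, the acetyl-CoA carboxylase that commits carbon to fatty acids, read 39.4, 37.4 and 40.1 CPM in SeS O2 and 54.1, 46 and 51.4 CPM in SeD O2 (0.37 ± 0.103, adjusted p = 0.0846). Without SeD O2 PN3 replicate 1 the values were 0.30 for Fdps and 0.32 for Acaca, the median was 0.19, and 0 of the 30 were called. The count was 7 without SeD O2 PN3 replicate 2 and 10 without SeD O2 PN3 replicate 3, each time with replicate 1 as one of the 2 libraries left.

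**Figure D4:**
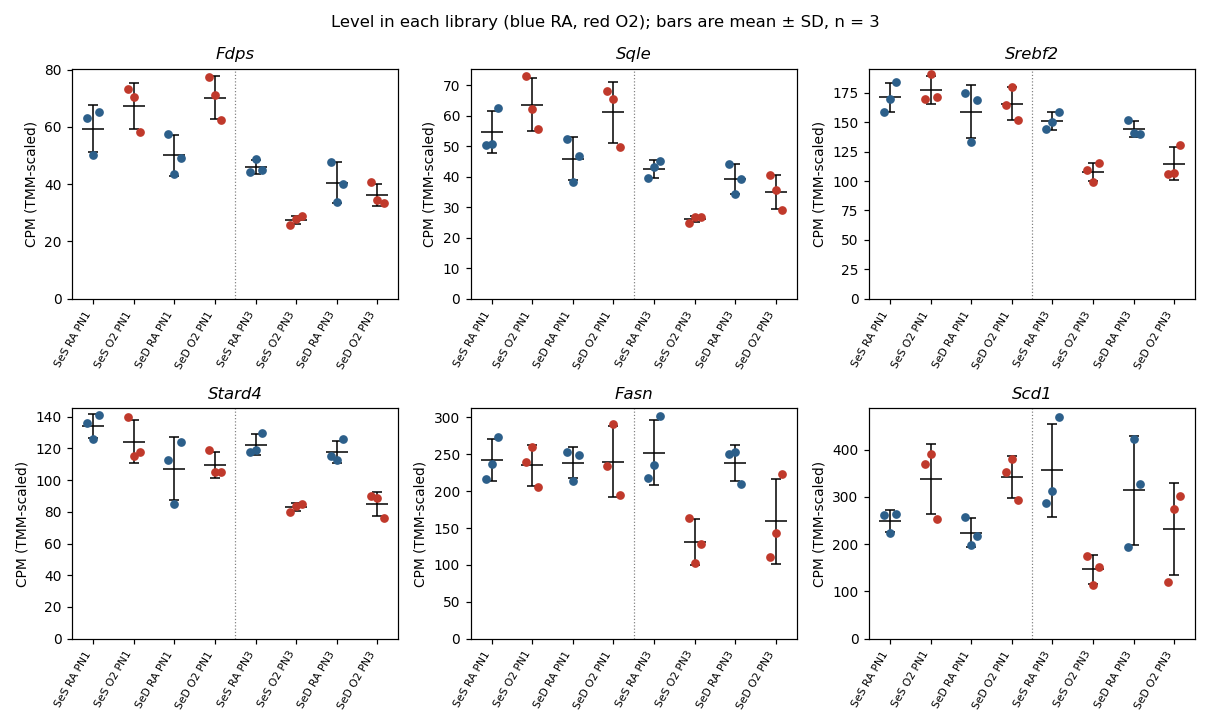
CPM in each library (points, blue RA and red O2) with the mean and SD of the 3 libraries for 2 sterol enzymes, 2 regulators and 2 fatty acid genes. In SeS at PN3 the 3 O2 points lie below the 3 RA points in all 6 panels, and in SeD at PN3 they do so for Srebf2 and Stard4.

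Between PN1 and PN3, sterol genes fell in pups kept in O2. The older pups had also been in O2 for longer, so age and length of exposure cannot be told apart. In SeS O2, 13 of the 30 genes (43.3%) were lower at PN3 and 0 higher, where 0.105% of all genes were called lower. All 30 log2 fold changes were below 0, with a median of -0.71. Of the 13, 10 were sterol enzymes and 3 were regulators (Insig1, Srebf2 and Stard4), and 0 of the 9 fatty acid genes were called. Fdps read 73.4, 70.5 and 58.2 CPM at PN1 and 25.9, 27.8 and 28.9 CPM at PN3 (log2 fold change -1.29 ± 0.137, adjusted p = 9.38e-05). Sqle read 73, 62 and 55.7 CPM at PN1 and 24.9, 26.7 and 26.8 CPM at PN3 (-1.28 ± 0.147, adjusted p = 0.000128). Insig1 read 88.7, 89.9 and 81.1 CPM at PN1 and 35.8, 36.9 and 47.2 CPM at PN3 (-1.12 ± 0.15, adjusted p = 0.00107). In all 3 genes the ages were far apart relative to the spread within each. Fdps, Cyp51, Insig1, Mvd, Fdft1 and Sqle were called without any single library. The count was 7 without SeS O2 PN1 replicate 1 or any one of the 3 SeS O2 PN3 libraries, and 8 without SeS O2 PN1 replicate 2.

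In SeD O2, 11 of the 30 (36.7%) were lower at PN3 and 0 higher, where 2.38% of all genes were called lower. Of these, 10 were also among the 13 of SeS O2, and the other was Acss2, the cytosolic acetyl-CoA synthetase. Fdps read 77.4, 71 and 62.4 CPM at PN1 and 40.7, 34.5 and 33.6 CPM at PN3 (-0.95 ± 0.135, adjusted p = 0.00172). Acss2 read 43.5, 37.5 and 39.7 CPM at PN1 and 23.7, 26 and 28.9 CPM at PN3 (-0.62 ± 0.127, adjusted p = 0.0133). With only the groups compared in the fit, the count of the 30 genes called in SeD O2 was 0. Leaving out SeD O2 PN1 replicate 1 gave 6, and the count was 2 without the 3 Alb-rich libraries, all of which belong to the SeD O2 groups. In RA the same comparison called 0 of the 30 in SeS, where 1.15% of all genes were called in either direction and 3162 had an unadjusted p under 0.05, 7 of the 30 among them. DESeq2 called 4 and limma 7 of the 30 there, with no share of all genes beside these counts. Of the 17 sterol enzymes, 14 were below 0 in SeS RA (median -0.21), 5 of them at an unadjusted p under 0.05 in edgeR. The median of the 17 was -0.90 in SeS O2. In SeD RA, 9 of the 17 were below 0 (median -0.02). The SeS RA count was 1 without SeS RA PN1 replicate 2 or either of replicates 2 and 3 of SeD RA PN1, and 2 without SeD O2 PN3 replicate 1. In SeD RA only Insig1 was called, lower at PN3, where 16.5% of all genes were called lower. It read 56.2, 49 and 74.6 CPM at PN1 and 43.8, 42.4 and 46.4 CPM at PN3 (-0.44 ± 0.149, adjusted p = 0.0383). That count was 0 without SeD RA PN1 replicate 1 or 3 or SeD RA PN3 replicate 2 or 3, 3 without SeD O2 PN3 replicate 1 and 2 without SeD O2 PN3 replicate 3.

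Whether the O2 effect itself differed between PN1 and PN3, with both age and length of exposure, was tested as PN3 minus PN1. In SeD, 7 of the 30 genes (23.3%) had a lower O2 effect at PN3, where 3.01% of all genes were called lower. They were Pmvk (-0.58 ± 0.155, adjusted p = 0.0137), Fdps (-0.65 ± 0.19, adjusted p = 0.0216), Cyp51 (-0.63 ± 0.186, adjusted p = 0.022), Mvd (-0.63 ± 0.191, adjusted p = 0.027), Stard4 (-0.51 ± 0.161, adjusted p = 0.0334), Nsdhl (-0.57 ± 0.196, adjusted p = 0.0459) and Msmo1, the sterol methyl oxidase (-0.61 ± 0.212, adjusted p = 0.0494). Msmo1 read 49.1, 35.6 and 54.5 CPM in SeD RA PN1 and 67.4, 59.9 and 77.2 CPM in SeD O2 PN1, then 46.7, 35 and 43.1 CPM in SeD RA PN3 and 36.6, 43.7 and 39.8 CPM in SeD O2 PN3. Its O2 libraries were above those of RA at PN1 and overlapped them at PN3. The count was 0 without SeD RA PN1 replicate 2 and 3 without SeD O2 PN1 replicate 1 or SeD RA PN3 replicate 3. In SeS, 0 of the 30 were called and 0% of all genes, with 2204 genes at an unadjusted p under 0.05, 21 of the 30 among them. All 30 differences were below 0, with a median of -0.57, and Fdps (-0.92 ± 0.19) and Sqle (-0.93 ± 0.205) both had an adjusted p of 0.236. Limma called 10 and DESeq2 5 of the 30 in SeS, with no share of all genes beside these counts. These differences use the same libraries as the comparisons above and are no second source for them. Over the comparisons of O2, diet and their differences 18 of the 30 genes were called at least once, and 12 were not. Of those 12, Acss2, Fdft1, Hmgcs1, Idi1 and Insig1 were called between ages. Acaca, Elovl6, Fads2, Hsd17b7, Sc5d, Srebf1 and Tm7sf2 were called in 0 of the 16 comparisons.

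Across the 24 libraries the sterol enzymes varied together. The correlation of each enzyme with the mean of the other sterol enzymes had a median of 0.83, from 0.38 for Dhcr7 to 0.95 for Fdft1. For deviations from group means the median was 0.71. Fatty acid genes correlated with the mean of their own class at a median of 0.58, and at 0.18 for deviations from group means. Srebf2 correlated with the sterol enzymes at 0.73 and Srebf1 at 0.18. The order was the reverse for deviations from group means, with Srebf2 at 0.20 and Srebf1 at 0.54. Without the 3 Alb-rich libraries the median for sterol enzymes was 0.92, and for fatty acid genes with their own class 0.80. For deviations from group means these medians were then 0.77 and 0.62, so the fatty acid value of 0.18 rested on those 3 libraries. Without them Srebf2 and Srebf1 were at 0.86 and 0.15 with the sterol enzymes, and at 0.48 and 0.06 for deviations. These are descriptions over 24 libraries that share scaling, group and age.

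Other genes of lipid handling were counted for SeS and SeD at PN3, from lists chosen with earlier results known. Over all genes 11.5% were called lower and 16.1% higher in SeS, and 12.2% lower and 23.7% higher in SeD, and a share near these is no result about a list. Of 19 other sterol pathway genes tested, 5 were lower with O2 in SeS and 0 higher, Lbr, Mbtps1, Acat2 and Osbp among them. Osbp, a sterol transfer protein, was at -0.45 ± 0.0946 (adjusted p = 0.00302), and Acat2, an acetoacetyl-CoA thiolase, at -0.49 ± 0.124 (adjusted p = 0.00831). In SeD, 3 of the 19 were higher and 1 lower, and the 3 were highest in SeD O2 replicate 1. Of 12 cholesterol efflux genes and targets of the liver X receptor, 1 was lower in SeS (Nr1h3, -0.56 ± 0.159, adjusted p = 0.0136), while 3 were higher and 1 lower in SeD. Those 3 were all highest in SeD O2 replicate 1, where Apoe, a lipoprotein component, read 7900 CPM against 269 and 324 CPM in replicates 2 and 3. Of 20 other lipogenic genes, 2 were lower in SeS (Aacs and Mid1ip1) and 6 were higher in SeD. All 6 were highest in SeD O2 replicate 1, for example Dgat2, which makes triglycerides, at 133 CPM there and 4.92 and 6.06 CPM in replicates 2 and 3.

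Of 17 fatty acid oxidation genes, 2 were higher in SeS, Ppargc1a, a coactivator of oxidative metabolism (0.76 ± 0.223, adjusted p = 0.0167), and Pdk4, a kinase that slows glucose oxidation (0.85 ± 0.273, adjusted p = 0.0257). In SeD 13 of the 17 were higher, but their summed level was 3270 CPM in SeD O2 replicate 1, 1210 and 1150 CPM in replicates 2 and 3 and 1050 to 1120 CPM in RA. Among 7 lipofibroblast markers, 3 were higher and 2 lower in SeS, and 2 higher and 3 lower in SeD. The lipid droplet gene Plin2 and the lipase gene Lpl rose in both diets, by 0.70 ± 0.14 and 0.85 ± 0.225 on the log2 scale in SeS. The receptor gene Pdgfra and the growth factor gene Fgf10 fell in both, and were at -1.02 ± 0.149 and -0.60 ± 0.189 in SeS. Of 8 genes of surfactant phospholipid synthesis, 1 was lower in SeS (Chka) and 0 were called in SeD.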

How the data were processed

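Lung RNA of 24 newborn C3H/HeN mice was sequenced, 3 libraries in each of 8 groups. Per the study's methods, libraries were stranded, made from poly(A) RNA and sequenced from both ends on a NextSeq 2000. The authors used FastQC 0.12.0, Trimmomatic 0.39, HISAT2 2.2.1 with GRCm39 and featureCounts 2.0.6, and deposited raw read counts per gene, which were used here as they stand. The strand setting of counting is not given in the sources used here.

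Genes were kept by filterByExpr (minimum count 10, minimum total 15), which left 23831 of 57010. After TMM scaling the counts went into edgeR 4.0.16 in R 4.3.3 (quasi-likelihood test, robust estimation of the spread, 8 group means in 1 fit). The 16 comparisons were contrasts of that fit. P-values were adjusted by Benjamini and Hochberg over all genes tested, and calls needed a log2 fold change past 0.25 in size together with an adjusted p below 0.05, as in the study. Fold changes used a prior count of 0.125 and are given with their SE. CPM of single genes are on TMM-scaled library sizes. Those of Alb and receptor genes used to describe libraries, and all sums over a list of markers or genes, are on plain totals. The common biological coefficient of variation was 0.263. Totals per library ran from 25985926 to 50437601 counts. The script was tested on simulated data.

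Values in every library are given for members called for O2, diet or a difference and for the highest member of each role. Of related lists, up to 3 genes with the smallest p were to be named, and where 5 or fewer were called all may be named, chosen after their values were seen. The members and lists were chosen with earlier results of these data known. Alternatives were RLE size factors, no filter, a replicate block, limma 3.58.1 (voomWithQualityWeights), DESeq2 1.42.0, only the groups compared, no fold threshold, other sets of libraries and each of the 24 libraries left out. Robust estimation off was added after seeing the data. SeS O2 PN1 replicate 2 was placed by its title. Promoter letters are from RefSeq. Some genes of the related lists are counted but not reported by name here.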

Additional observations from a re-analysis of the deposited data

Results flagged for a closer look

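In SeD pups the effect of O2 differed between ages by the test of the difference itself (PN3 minus PN1, edgeR) for 7 genes. The differences on the log2 scale were -0.65 for Fdps, -0.63 for Cyp51, -0.63 for Mvd, -0.61 for Msmo1, -0.58 for Pmvk, -0.57 for Nsdhl and -0.51 for Stard4. All 7 calls were lost without SeD RA PN1 replicate 2, the library with 822 CPM of receptor transcripts.

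In SeS pups, every O2 library lay above every RA library at PN1 and below every RA library at PN3 for Cyp51 (difference -0.75) and Fdft1 (difference -0.57). These 2 differences were tested and did not pass the threshold. At PN1 in SeS, O2 libraries lay wholly above RA libraries for 3 of the 30 genes, against 19.7% of all genes. Such a separation at PN1 is therefore no result about these genes. SeS O2 PN1 replicate 2, whose labels conflict, is among the libraries compared.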

How the results depend on the processing

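Over all alternatives, the calls of single genes were kept 1669 times, lost 291 times and reversed 0 times, calls gained not being counted here. The alternative with no fold threshold cannot lose a call, so its part of the 1669 was fixed in advance. Many of the single libraries left out were not in the comparison at hand. Counts below are of the 30 genes called. The shares of all genes called in these alternatives are not given beside them, so a higher count is no result about the 30 genes. With RLE size factors PN3 against PN1 in SeS RA gave 1 and the age difference of the O2 effect in SeD 2, and with no filter 1 and 3. With a replicate block, PN3 against PN1 gave 0 in SeD RA and 7 in SeD O2. Replicate numbers did not pair the libraries (correlation over 0.1 in 7 of 18 same-numbered pairs at PN1 and 6 of 18 at PN3), so the replicate block is given here only. With the library of conflicting labels moved to SeS RA PN1, SeD against SeS in RA at PN1 gave 0, and PN3 against PN1 gave 2 in SeS RA and 0 in SeD RA. Without the 3 libraries with the most Alb, O2 in SeD at PN1 gave 5, SeD against SeS in RA at PN1 4, PN3 against PN1 2 in SeD RA and 2 in SeD O2, and the age difference in SeD 0. Without the 2 RA libraries with most receptor transcripts these were 0, 0, 0 in SeD RA and 0 for the age difference, with 1 in SeS RA. With only the groups compared, O2 gave 0 in SeD at PN1, 22 in SeS at PN3 and 2 in SeD at PN3, SeD against SeS in RA at PN1 gave 0, PN3 against PN1 in SeD O2 0, and the age difference 3 in SeS and 0 in SeD. With limma, O2 in SeD at PN1 gave 12, SeD against SeS in RA at PN1 8, PN3 against PN1 7 in SeS RA, 12 in SeD RA and 21 in SeS O2, and the age difference in SeS 10. With DESeq2, O2 in SeD at PN1 gave 8, SeD against SeS in O2 at PN3 11, PN3 against PN1 4 in SeS RA and 2 in SeD RA, the diet difference at PN3 1, and the age difference 5 in SeS and 3 in SeD. With each library left out, counts ran from 0 to 14 for O2 in SeD at PN1, 9 to 20 in SeS at PN3 and 3 to 9 in SeD at PN3, 0 to 6 for diet in RA at PN1 and 0 to 10 in O2 at PN3, 0 to 2, 0 to 3, 7 to 18 and 6 to 13 for age in SeS RA, SeD RA, SeS O2 and SeD O2, and 0 to 10 for the age difference in SeD. The causes were not tested. With 3 pups a group, 7 genes for O2 in SeS at PN3, 1 for O2 in SeD at PN3, and 6 for age in each of SeS O2 and SeD O2 were called without any single library.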
